A study of Mus musculus with 6 samples.

Results

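Genes that make neuroactive steroids from cholesterol, together with the nuclear progesterone receptor, were examined in whole sciatic nerve of mice lacking Srebf-1c. The set holds 9 genes fixed by symbol: Tspo, Star, Cyp11a1, Srd5a1, Srd5a2, Srd5a3, Akr1c14, Hsd17b1 and Pgr. A member was measured where a probe set, the group of array probes that reads 1 transcript, carried that symbol and no other in the platform annotation. This held for 7 of the 9, out of 22180 genes measured in all. Srd5a1 and Srd5a2 matched no named probe set and are not analysed here. The nerves came from 10-month-old Srebf-1c KO mice and their wild-type littermates, with 3 samples of each genotype and 1 Affymetrix whole-transcript array per sample. The sources used here do not give treatment, strain, sex, the construction of the KO allele or any pooling of animals. The labels number the samples of a genotype without saying that they are separate animals. The p-values therefore set a difference against the variation between these samples, and part of that variation may be technical.

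Steroid synthesis starts when cholesterol reaches the inner mitochondrial membrane, where the side chain cleavage enzyme turns it into pregnenolone. Pregnenolone is converted to progesterone, and a reductase and a dehydrogenase then turn progesterone into allopregnanolone, which acts on GABA-A receptors. Schwann cells are known to make and respond to progesterone and its reduced derivatives, and genes of peripheral myelin are among the known responders. SREBP-1c, the product lost in these mice, is a transcription factor of lipid synthesis known to bind sterol regulatory elements and E-boxes.

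Srebf1, the gene that encodes SREBP-1c, had log2 intensities of 9.53, 9.55 and 9.70 in wild type against 8.11, 8.06 and 8.04 in KO. Its log2 fold change was -1.52 ± 0.11 (SE, limma adjusted p = 0.0497), and the groups did not overlap. The call was marginal: the adjusted p was 0.255 to 0.764 with each array left out in turn, although the fold change stayed between -1.56 and -1.47. The probe set reads the gene as a whole, and Srebf1 encodes a second isoform besides SREBP-1c. The array median intensity was 117.99, 117.62 and 115.5 in wild type against 121.17, 118.87 and 122.57 in KO, so each KO array was above each wild-type array. With arrays at 1 median, the median log2 fold change of the measured members moved from -0.036 to -0.082. That of all genes moved alike, from -0.032 to -0.079. All 7 measured markers of myelinating Schwann cells were well measured, with Mbp between 12.65 and 12.81 and Pmp22 between 13.44 and 13.67 on the log2 scale. Markers of fat and muscle varied between arrays within each genotype. The adipocyte score, which averages over 7 marker genes how far each lies from its own 6-array mean on the log2 scale, was -0.997, -0.37 and 1.90 in wild type against -1.13, 1.75 and -1.15 in KO. For skeletal muscle, the same score, from 8 genes, was 0.75, -0.82 and -0.26 in wild type against 0.72, -0.44 and 0.05 in KO. Wild-type replicate 3 and KO replicate 2 thus stood apart by their fat markers. The Y-linked genes Eif2s3y, Kdm5d and Uty lay between 8.59 and 10.34 on every array, while Xist lay between 5.43 and 5.91. KO replicate 1 was the highest array for each of these Y-linked genes. Eif2s3y read 9.12, 9.50 and 9.21 in wild type against 10.34, 9.59 and 9.59 in KO (limma adjusted p = 0.850). Its KO arrays all lay above its wild-type arrays, as in 4.08% of all genes, while Kdm5d and Uty overlapped.

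The files hold no detection call, so the 1105 olfactory receptor genes on the array, which are not known for expression in nerve, served as a gauge of dim signal. The 95th percentile of their mean log2 intensities was 6.56. Tspo, Srd5a3 and Hsd17b1 had means above it. The other 4 measured members, Star, Cyp11a1, Akr1c14 and Pgr, had means of 6.49, 6.42, 6.47 and 5.95 and were not above that level. Intensities of different probe sets are not on a common scale, so these values say how well a gene could be read and do not rank the genes by abundance.

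**Figure D1:**
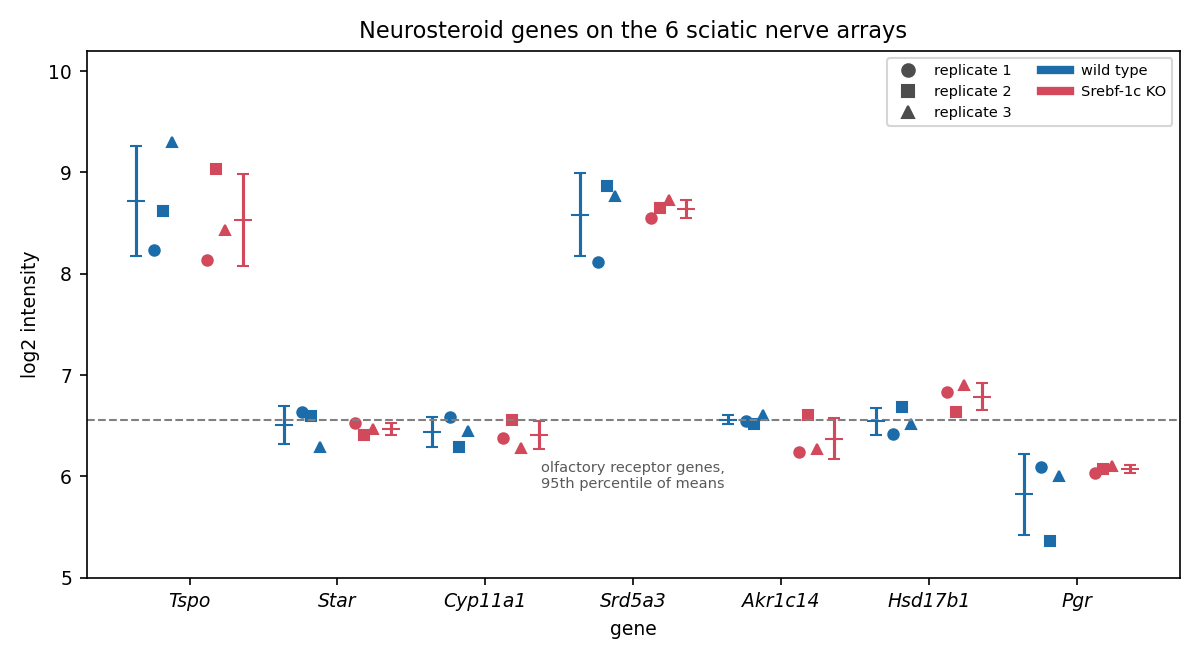
Log2 intensity of the 7 measured members on each array, with wild type in blue, KO in red and the replicate number given by the marker shape; the bars beside the points are the mean ± SD of 3 arrays. The dashed line marks the level of 6.56 set by olfactory receptor genes, and wild-type and KO points overlap for all 7 genes.

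Tspo encodes the translocator protein of the outer mitochondrial membrane, a cholesterol-binding protein and the target of drugs used to raise neurosteroid synthesis. Its log2 intensities were 8.23, 8.62 and 9.30 in wild type against 8.14, 9.03 and 8.43 in KO. The highest values were those of wild-type replicate 3 and KO replicate 2, and the groups overlapped. The mean was 8.72 ± 0.54 in wild type and 8.53 ± 0.45 in KO (SD, n = 3), and the log2 fold change was -0.19 ± 0.32 (SE, limma adjusted p = 0.961). The highest array stood 2.23-fold above the lowest, which was the widest span of any member. On the linear scale KO was 0.880 of wild type, with a 95% interval from 0.521 to 1.48.

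The 2 arrays with the highest Tspo values were also the 2 with the highest values of all 7 measured adipocyte markers. This order was found in 9.57% of all genes. They were likewise the 2 highest for 7 of 8 macrophage markers, whose score was -0.29, -0.20 and 0.49 in wild type against -0.47, 0.49 and -0.03 in KO. In bulk tissue, more cells of a type and more RNA per cell cannot be told apart. With the adipocyte score as a covariate the log2 fold change of Tspo was -0.079, with the muscle score it was -0.078, and with both of these arrays left out it was -0.14. Both covariate fits were added after the values were seen, and the SE of the Tspo value in the main fit was 0.32. The direction turned on leaving out wild-type replicate 3 (0.10) or KO replicate 1 (0.01). The macrophage score was not fitted as a covariate, and the part of fat or macrophages in the Tspo values was not tested.

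**Figure D2:**
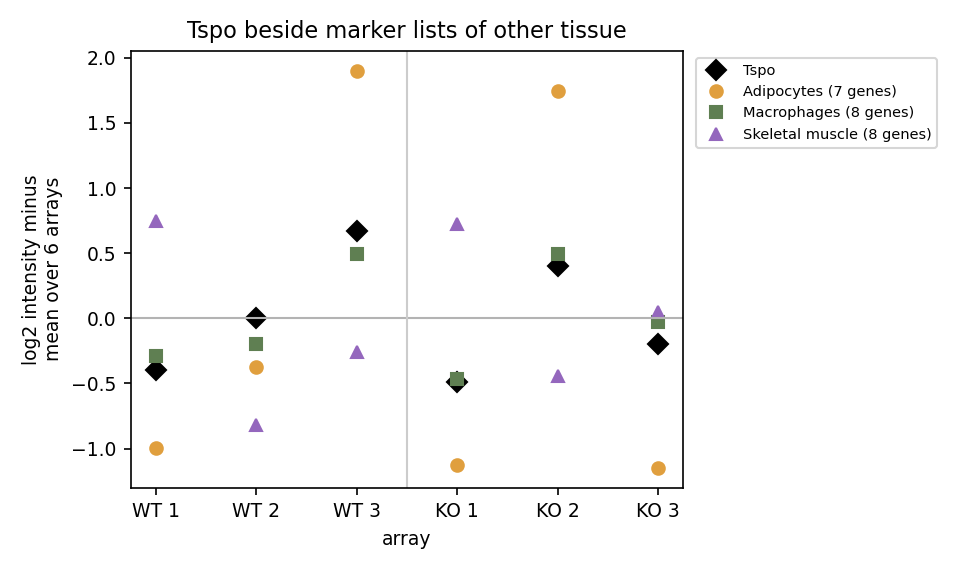
Deviation of log2 intensity from the mean over 6 arrays, for Tspo (black diamonds) and for the mean of 7 adipocyte, 8 macrophage and 8 skeletal muscle markers, by array. Tspo lies highest on wild-type replicate 3 and KO replicate 2, where the adipocyte score is 1.90 and 1.75.

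Star, the protein that carries cholesterol to the inner mitochondrial membrane in the adrenal gland and gonads, read 6.64, 6.60 and 6.29 in wild type against 6.53, 6.41 and 6.47 in KO. The KO values lay inside the wild-type range. Its log2 fold change was -0.04 ± 0.13 (SE, limma adjusted p = 0.979), with an interval of 0.780 to 1.21 for the ratio of KO to wild type. It turned to 0.02 without wild-type replicate 1 and to 0.0023 without wild-type replicate 2.

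Cyp11a1 encodes the side chain cleavage enzyme, which makes pregnenolone. Its brighter probe set read 6.59, 6.29 and 6.45 in wild type against 6.38, 6.56 and 6.28 in KO, again with overlap, for a log2 fold change of -0.04 ± 0.14 (SE, limma adjusted p = 0.985). It turned to 0.04 on leaving out wild-type replicate 1 and to 0.03 on leaving out KO replicate 3. A second probe set of the gene read 6.53, 6.22 and 6.50 in wild type against 6.12, 6.10 and 6.47 in KO, at -0.19 ± 0.16 (SE). Neither probe set separated the genotypes, and the order of the arrays differed between them.

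Srd5a3 is named as a steroid reductase but is known above all as the polyprenol reductase that makes dolichol for protein glycosylation. It was 1 of the 3 members above the olfactory receptor level, at 8.11, 8.86 and 8.77 in wild type against 8.55, 8.65 and 8.73 in KO. All KO values fell between the lowest and the highest wild-type value. Its log2 fold change was 0.06 ± 0.21 (SE, limma adjusted p = 0.982), and the interval for the ratio ran from 0.742 to 1.46. The low wild-type value was that of replicate 1, and without it the fold change was -0.18.

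Among the 6 members with a promoter window in the RefSeq table of GRCm38.p6, namely Cyp11a1, Srd5a1, Srd5a2, Srd5a3, Akr1c14 and Pgr, Srd5a3 was the 1 that held a motif searched for SREBP. Each window holds 300 bases around a start site, mostly upstream, and both strands were searched. The sterol regulatory element TCACNCCAC was in none of these windows, against 1.24% of all 32851 windows, and the E-box CACGTG was in the Srd5a3 window, against 7.15% of all windows. A match is a description of the letters and not a bound site, and no binding was measured here. The Srd5a3 window, with the E-box in capitals, lies on the plus strand at chr5:76140023-76140322 of GRCm38.p6 and is shown because it carries that motif.
Srd5a3: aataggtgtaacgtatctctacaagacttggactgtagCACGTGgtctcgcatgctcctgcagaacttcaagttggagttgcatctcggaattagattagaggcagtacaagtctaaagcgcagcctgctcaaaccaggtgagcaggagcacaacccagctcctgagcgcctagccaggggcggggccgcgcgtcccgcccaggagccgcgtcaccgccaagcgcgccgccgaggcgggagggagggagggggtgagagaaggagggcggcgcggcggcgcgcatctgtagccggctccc

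Akr1c14 encodes the mouse hydroxysteroid dehydrogenase that reduces dihydroprogesterone to allopregnanolone. Wild-type values were close together at 6.55, 6.52 and 6.61, while KO values were 6.24, 6.61 and 6.27. KO replicates 1 and 3 lay below every wild-type array, and KO replicate 2, which had high fat markers, was level with the highest of them. The log2 fold change was -0.19 ± 0.14 (SE, limma adjusted p = 0.892), which is a ratio of 0.879 with an interval from 0.703 to 1.10. Leaving out single arrays it ran from -0.12, without KO replicate 1, to -0.30, without KO replicate 2, where the adjusted p was 0.725, and with the adipocyte score as a covariate it was -0.16 (adjusted p = 0.858). Akr1c12, a close relative in the same gene family, likewise had its highest KO value on replicate 2, at 5.29, 5.97 and 5.20 in KO against 6.08, 5.76 and 5.76 in wild type. The 6 other Akr1c genes measured had means of 3.83 to 5.68, none above the olfactory receptor level. In KO, 2 of them were highest on replicate 2, 3 on replicate 1 and 1 on replicate 3, an order read from dim signal. All 6 had lower means in KO, from -0.03 for Akr1c18 to -0.43 for Akr1c20, as had Akr1c14. Of all 22180 genes, 12624 also had a lower mean. Members of this family are alike in sequence, so probe sets may share signal.

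Hsd17b1, the dehydrogenase known for making oestradiol from oestrone, had the smallest p of the members. It read 6.42, 6.69 and 6.52 in wild type against 6.83, 6.64 and 6.90 in KO. KO replicates 1 and 3 lay above every wild-type array, and KO replicate 2 lay below wild-type replicate 2. The mean was 6.54 ± 0.14 in wild type and 6.79 ± 0.14 in KO (SD, n = 3), and the log2 fold change was 0.25 ± 0.13 (SE, limma adjusted p = 0.870). The ratio was 1.19, with an interval from 0.955 to 1.47. It stayed between 0.19 and 0.32 on the log2 scale with each array left out in turn. Its mean was barely above the olfactory receptor level, at 6.67 against 6.56.

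Pgr, the nuclear progesterone receptor, was the dimmest member. Its values were 6.09, 5.37 and 6.01 in wild type against 6.03, 6.08 and 6.11 in KO. Wild-type replicate 2 stood apart from the other 5 arrays, which lay within 6.01 to 6.11. The log2 fold change of 0.25 ± 0.20 (SE, limma adjusted p = 0.897) fell to 0.02 without that array.

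None of the 7 members passed an adjusted p of 0.05 in limma, and none had an unadjusted p under 0.05; the smallest unadjusted p was 0.105. Over all genes, 0.00451% passed the adjusted test, which is Srebf1 alone, 2.34% had an unadjusted p under 0.05 with a higher mean in KO and 3.49% with a lower one. The study's own criterion asks for 1.5-fold or more at an unadjusted p under 0.05. None of the members met it, and 1.19% of all genes did. KO arrays were separated from wild-type arrays, upward or downward, in no member, against 4.08% and 8.21% of all genes. The median log2 fold change of the members was -0.04, with 3 higher and 4 lower means, and that of all genes was -0.03. Of all 22180 genes, 9556 had a higher mean in KO and 12624 a lower one. These are also the background for the counts of direction in the lists below. For all 7 members the wider of the within-genotype ranges exceeded the difference between genotypes. This was not counted over all genes, most of which also overlap between genotypes, so it does not set the members apart. The 95% intervals for the ratio of KO to wild type lay within 0.521 to 1.65 for all 7, so a 2-fold difference in intensity lay outside each of them, while smaller differences were not resolved with 3 arrays a group. For the 4 dim members an interval on intensity may understate the range for RNA. For a single gene, an exact permutation test of 3 arrays against 3 cannot give a two-sided p below 0.1.

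**Figure D3:**
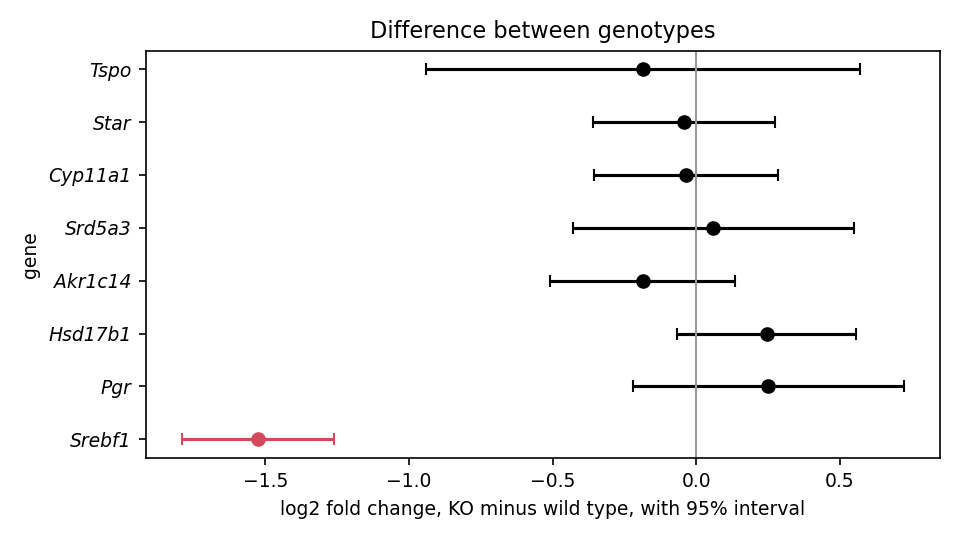
Log2 fold change, KO minus wild type, with the 95% interval from the limma fit, for the 7 measured members (black) and Srebf1 (red). Every member's interval spans 0, whereas that of Srebf1 runs from -1.79 to -1.26.

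The wider steroid pathway was described through 6 lists of other genes, of which 104 of 123 were measured. No gene passed the adjusted test. An unadjusted p under 0.05 was reached by 2 genes, both higher in KO, against the shares of 2.34% and 3.49% of all genes given above, and the median log2 fold change was -0.03. KO and wild-type arrays did not overlap for 8 of the 104, with 5 higher and 3 lower in KO, against 4.08% and 8.21% of all genes, so these counts are near or below the background. Without wild-type replicate 1 the number higher at an unadjusted p under 0.05 was 4, without KO replicate 1 it was 1, and without wild-type replicate 3 the number lower was 2.

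Genes that bring cholesterol to mitochondria and support side chain cleavage had 14 of 18 members measured, with 5 higher and 9 lower means, a median log2 fold change of -0.13 and none with an unadjusted p under 0.05. Stard6, a lipid transfer protein related to Star, stood at 0.29 ± 0.16 (SE), with its lowest KO array and highest wild-type array both at 7.35. Atad3a, a membrane ATPase of mitochondria, stood at -0.25 ± 0.14 and Acbd3, which binds the translocator protein, at -0.16 ± 0.13. Dbi, whose peptide is a ligand of the translocator protein, stood at -0.17 ± 0.18.

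Steroid dehydrogenases, reductases and P450 enzymes had 35 of 41 members measured, with 24 lower and 11 higher means. Over all 22180 genes, 12624 means were lower and 9556 higher. The list had a median of -0.03 and no gene at an unadjusted p under 0.05. Of the 35, 14 had means above the olfactory receptor level. The 3 with the smallest p, Akr1c20 at -0.43 ± 0.21 (SE), Hsd17b3 at 0.26 ± 0.15 and Akr1c12 at -0.38 ± 0.22, were all below that level. Of 7 measured markers of the adrenal gland and gonads, among them Cyp17a1, Cyp21a1 and Cyp11b1, none had a mean above it.

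Nuclear steroid receptors and their partners had 16 of 20 members measured, with 7 higher and 9 lower means and a median of -0.05. Ptges3, a co-chaperone of steroid receptors, was the 1 with an unadjusted p under 0.05, at 0.45 ± 0.16 (SE, limma adjusted p = 0.850), and was not above the olfactory receptor level. Fkbp5, a co-chaperone known as a glucocorticoid target, read 7.81, 8.01 and 8.56 in wild type against 8.65, 9.26 and 8.34 in KO, at 0.62 ± 0.28. KO replicates 1 and 2 lay above all wild-type arrays and KO replicate 3 did not. Nr1i3, the constitutive androstane receptor, stood at 0.26 ± 0.14 and was likewise dim. The oestrogen receptor Esr1 stood at -0.17 ± 0.36, and the mineralocorticoid receptor Nr3c2 at -0.23 ± 0.12.

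Paqr8, a membrane progesterone receptor of the progestin and adipoQ receptor family, showed the largest difference from wild type among well-read genes of these lists. It read 9.15, 9.45 and 9.59 in wild type against 9.94, 10.13 and 10.08 in KO, so every KO array lay above every wild-type array. The mean was 9.40 ± 0.22 in wild type and 10.05 ± 0.10 in KO (SD, n = 3). The log2 fold change was 0.65 ± 0.15 (SE), a ratio of 1.57 with an interval from 1.24 to 1.995. Its unadjusted limma p was 0.00288. It met the criterion of the study applied to that p, as 1.19% of all genes did. The limma adjusted p over 22180 genes was, however, 0.850. Leaving out single arrays, the value ran from 0.53 to 0.75, and the adjusted p from 0.668 upward. It was 0.68 with the adipocyte score and 0.69 with the muscle score as a covariate.

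The other 10 measured membrane receptor genes did not share this difference in their values, which ran from -0.28 ± 0.14 (SE) for Nenf to 0.17 ± 0.12 for Cyb5d2. Paqr6, another receptor of the family, stood at -0.0019 ± 0.18 and Paqr7 at -0.12 ± 0.13. The progesterone-binding membrane component Pgrmc1 stood at -0.13 ± 0.13 and Pgrmc2 at -0.20 ± 0.14. The median over the 11 was -0.0019. Whether Paqr8 differed from its relatives was not tested.

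The Paqr8 windows are shown because this was the 1 gene of the lists at the study's criterion, applied to the limma p. Neither holds the sterol regulatory element or the E-box, and both hold TGTTCT or its reverse complement, the core bound by progesterone, androgen and glucocorticoid receptors, which 19% of all windows hold. It is in capitals below. No window of a member, that of Pgr included, holds TGTTCT or its reverse complement. The window of Fkbp5, the glucocorticoid target, does not hold it either and holds 1 E-box. Both Paqr8 windows are on the plus strand of GRCm38.p6, window 1 at chr1:20890298-20890597 and window 2 at chr1:20917590-20917889.
Paqr8 window 1: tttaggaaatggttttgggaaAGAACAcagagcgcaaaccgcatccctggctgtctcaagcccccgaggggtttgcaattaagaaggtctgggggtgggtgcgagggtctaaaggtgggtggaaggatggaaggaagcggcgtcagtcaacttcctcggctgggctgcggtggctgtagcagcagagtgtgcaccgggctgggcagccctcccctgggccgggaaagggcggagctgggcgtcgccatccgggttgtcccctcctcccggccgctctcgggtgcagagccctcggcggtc
Paqr8 window 2: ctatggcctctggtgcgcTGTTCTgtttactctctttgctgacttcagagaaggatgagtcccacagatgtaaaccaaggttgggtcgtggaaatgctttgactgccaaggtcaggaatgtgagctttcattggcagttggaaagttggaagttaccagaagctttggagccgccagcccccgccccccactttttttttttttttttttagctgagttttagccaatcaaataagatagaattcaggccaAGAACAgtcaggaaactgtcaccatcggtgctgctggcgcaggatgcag

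**Figure D4:**
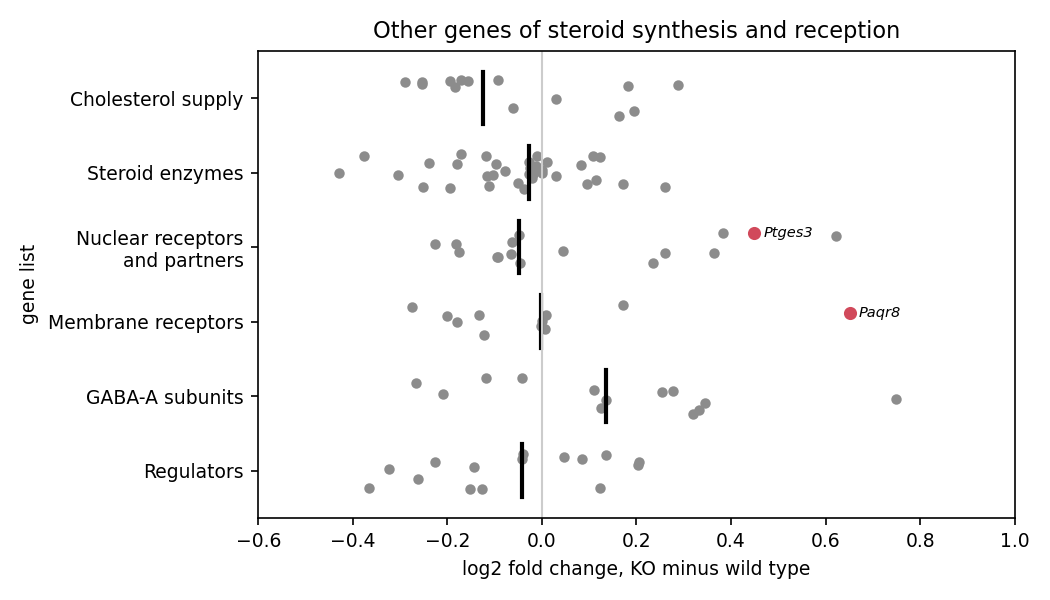
Log2 fold change, KO minus wild type, of 104 measured genes in 6 lists of the steroid pathway; each point is 1 gene, red points have an unadjusted p under 0.05 and the black bar is the list's median. The points centre near 0 in each list, and Paqr8 at 0.65 and Ptges3 at 0.45 are the 2 red points.

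Many GABA-A receptor subunits, on which allopregnanolone acts, varied between arrays within each genotype, and no subunit was called between genotypes. Of 13 measured subunits, 9 had higher and 4 had lower means in KO, with a median log2 fold change of 0.14 and none at an unadjusted p under 0.05. In 9 of the 13, the 3 highest arrays were wild-type replicate 1 and KO replicates 2 and 3, as in 5.32% of all genes. Gabrb1, a beta subunit, read 7.70, 6.15 and 5.90 in wild type against 6.00, 7.37 and 7.34 in KO, and Gabra5, an alpha subunit, read 8.17, 6.68 and 6.77 against 6.93, 7.77 and 7.95. Gabrb2 read 7.95, 6.59 and 6.36 against 6.44, 7.87 and 7.58. In these 3 genes the spread inside each genotype was over 1 log2 unit and exceeded the difference between genotypes, which was 0.32 ± 0.55 (SE) for Gabrb1, 0.34 ± 0.44 for Gabra5 and 0.33 ± 0.50 for Gabrb2. The 3 subunits with the smallest p were Gabra6, described below, Gabrd at 0.26 ± 0.16 (SE) and Gabre at 0.14 ± 0.13. Gabrd and Gabre varied less, with ranges of 0.67 and 0.39 log2 units over all arrays.

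Some neuronal genes were highest on the same arrays. The mean deviation over 10 neuronal genes, a list written after the values were seen, was 0.72, -0.28 and -0.49 in wild type against -0.41, 0.26 and 0.20 in KO, and 7 of the 10 had the same 3 highest arrays, while Tubb3, Isl1 and Prph did not. Since the genes were picked with values known, this count is a description and supports nothing. Snap25, a protein of synaptic release, read 11.63, 9.80 and 9.47 in wild type against 9.74, 11.05 and 11.08 in KO. The source of this signal was not tested. Gabra6 had the smallest p of the GABA-A list. Its 0.75 ± 0.44 (SE) rested on KO replicate 2 at 6.15, as the other 5 arrays lay between 4.01 and 4.50. All of these values, that of KO replicate 2 included, were below the olfactory receptor level of 6.56.

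**Figure D5:**
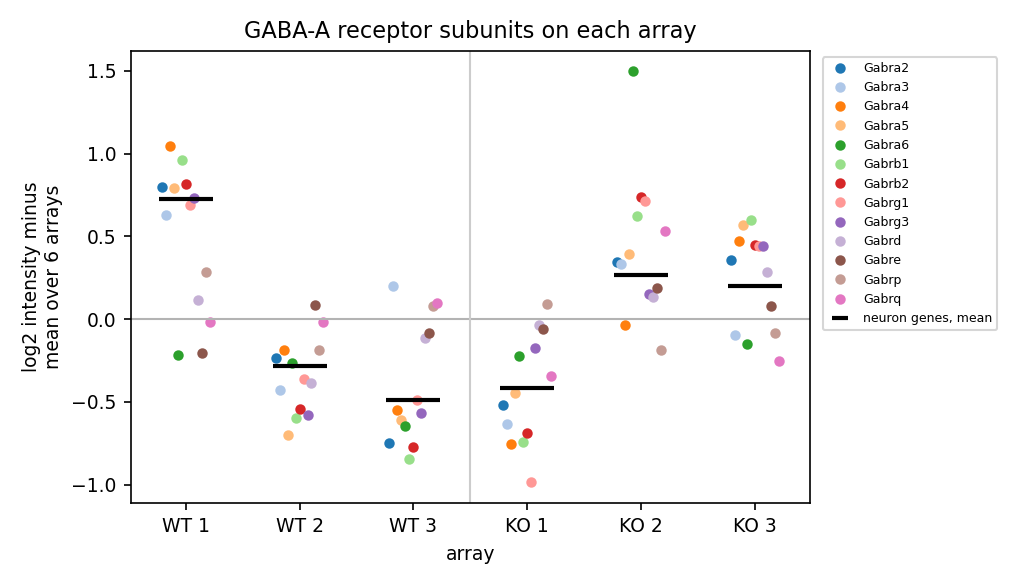
Deviation of log2 intensity from the mean over 6 arrays for 13 GABA-A receptor subunits (coloured points) and the mean over 10 neuronal genes (black bars), by array. The neuronal mean is highest on wild-type replicate 1, at 0.72, and above 0 on KO replicates 2 and 3, where most subunits are also above 0.

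Regulators of steroid-making genes had 15 of 16 members measured, with 6 higher and 9 lower means, a median of -0.04 and none with an unadjusted p under 0.05. Nr5a2, a nuclear receptor that drives steroid enzyme genes, stood at -0.26 ± 0.13 (SE) with no overlap of the groups. Nr2f1 stood at -0.36 ± 0.20, and Gata4, a factor of gonad and heart, at 0.21 ± 0.14 and not above the olfactory receptor level.

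For the 3 members that varied most over the 6 arrays, the genes with the most similar pattern were listed by Pearson r over the 6 arrays among about 10500 genes of at least median intensity, as a description only, since close matches are common over so few arrays. For Tspo they were Bscl2 (r = 0.997), which encodes the lipodystrophy protein seipin, Nfe2l2 (0.997), a factor of the oxidative stress response, and Mlkl (0.993), an effector of necroptosis. Bscl2 read 10.34, 10.73 and 11.33 in wild type against 10.32, 11.02 and 10.53 in KO, with wild-type replicate 3 and KO replicate 2 again highest. For Srd5a3 they were Kpnb1 (0.995), a nuclear import receptor, Zfp451 (0.993) and Zfp267 (0.992), which like Srd5a3 were lowest on wild-type replicate 1. For Pgr they were Prorp, Cyp2a22 and Ddx19b, all 3 lowest on wild-type replicate 2.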

How the data were processed

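Total RNA of 6 samples was labelled with the Affymetrix WT kit, per the labels' protocols. The deposited values are linear intensities per probe set, made by the authors with RMA (background correction, normalization across arrays and summary of probes) in TAC and Partek, per the series' design text. The linear scale is inferred from the values; software versions were not found there, and mm8 is the build named by the submitters' processing notes. Groups follow the titles and the genotype field, against a source field that reads wild type for KO samples too.

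Of 41077 probe sets, 23521 carried 1 gene symbol, 1814 several and 15742 none. Log2 intensities of the first kind were used, with the brightest probe set for each of 1082 genes that had several. lmFit and eBayes of limma 3.58.1 (R 4.3.3) were fitted over 22180 genes, KO minus wild type, with Benjamini-Hochberg adjustment, and checked on simulated data. Python 3.11.15, pandas 2.3.3 and matplotlib 3.10.9 were used for joins, motifs and plots. The 3 arrays a group limit the precision.

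The genes named by rule were the members, Srebf1 and the 3 genes of each pathway list with the smallest p. Mbp, Pmp22, Cyp17a1, Cyp21a1, Cyp11b1, Xist and the Y-linked genes came from the marker lists, outside that rule. Dbi, Esr1, Nr3c2, Paqr6, Paqr7, Pgrmc1, Cyb5d2, Gabra5, Gabrb1, Gabrb2, Mc2r and the neuronal genes were named after their values were seen. The members and lists were chosen with earlier results of these data known. The alternatives tried were a replicate block, the methods' ANOVA, other priors, weights, scalings and filters, and leaving out each array; the marker scores as covariates and the joint omission of 2 arrays were added after seeing the data.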

Additional observations from a re-analysis of the deposited data

How the results depend on the processing

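In all settings run, 0 of the 7 members passed the adjusted test, at 0.05 or at 0.10, and 0 met the study's criterion or had an unadjusted p under 0.05. Of 120 member values over 18 alternatives, 113 kept their direction and 7 turned, all on leaving out 1 array; the smallest adjusted p was 0.664. With each array left out, Tspo ran from -0.43 to 0.10, Star from -0.15 to 0.021, Cyp11a1 from -0.11 to 0.037, Srd5a3 from -0.18 to 0.20, Akr1c14 from -0.30 to -0.12, Hsd17b1 from 0.19 to 0.32 and Pgr from 0.023 to 0.39. The members' median ran from -0.012 to 0.10, the latter without wild-type replicate 3, and was -0.11 with wild-type replicate 3 and KO replicate 2 both left out. Star, Cyp11a1, Akr1c14, Hsd17b1 and Pgr were not in the fit without the dimmest 50% of genes, and Pgr not in that without 25%.

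Among the other steroid pathway genes, the number higher at an unadjusted p under 0.05 was 1 without the dimmest 25% or 50% of genes, 1 to 4 with each array left out and 4 without the 2 arrays. The number lower was 1 with the replicate block, with quantile normalization and with arrays at 1 median, 0 to 2 with each array left out, and 3 with the muscle score or without the 2 arrays. Same-numbered arrays correlated at 0.107, 0.012 and -0.219 in their deviations from group means. So few arrays cannot settle whether the labels' numbers pair the samples. The replicate block left every member uncalled. The Srebf1 call is marginal: its adjusted p was 0.713 with the replicate block, 0.308 with the methods' ANOVA, 0.0502 with arrays at 1 median, 0.0808 with the adipocyte and 0.227 with the muscle score, 0.472 without the 2 arrays and 0.255 to 0.764 with each array left out. Its log2 fold change lay between -1.57 and -1.47 in all of these. The cause of these changes was not tested.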

Other observations

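Mc2r, the corticotropin receptor gene, was among the markers of steroid-making glands, and mouse adipocytes are known to express it too. It read 7.67 on wild-type replicate 3 and 7.93 on KO replicate 2, the 2 arrays with the highest adipocyte scores, and between 5.23 and 5.46 on the other 4. Of the enzymes of those glands, Cyp11b1 lay between 5.36 and 6.11 and Cyp21a1 between 4.87 and 5.39 on all 6 arrays.

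Among the marker lists, Egr2, the transcription factor of myelinating Schwann cells, read 9.63, 9.93 and 9.64 in wild type against 10.32, 10.14 and 10.22 in KO, with no overlap. Its log2 fold change was 0.50 ± 0.13 (SE), with an unadjusted p of 0.00692 and a limma adjusted p of 0.850. The myelin genes Mbp and Pmp22 stood at -0.03 and 0.07. Gabbr2, a subunit of the GABA-B receptor on no list here, was highest on the arrays with the highest neuronal mean, at 9.66 on wild-type replicate 1, 8.67 on KO replicate 2 and 8.87 on KO replicate 3, against 7.29 to 7.60 on the others. Egr2 and Gabbr2 were picked after their values were seen.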
